A study of Homo sapiens with 16 samples.

Results

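The regions described here were gene-proximal enhancers that carried a peak of H3K27ac, the acetylation of histone H3 on lysine 27, in every peak list of a titration in K562 cells. Overlapping or touching peaks whose q-value was at most 1% (-log10 q of 2 or more) were merged over the 14 lists into 170159 regions. A merged region was kept if it had a peak in all 14 lists, was under 8000 bp wide and had its midpoint 5 to 50 kb from the nearest TSS of a protein-coding gene in GRCh38. This left 4866 members, 2.86% of the merged regions and 26.3% of the 18472 that every list called. The members were thus selected on the q-values of every library, and their presence in all lists, their width and their distance to the TSS are given below as descriptions.

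K562 is an established human cell line from a chronic myelogenous leukemia with erythroid features. All libraries used 1 antibody against H3K27ac and no treatment of the cells. In the fixed-antibody series, 0.25 µg of antibody was incubated with 7 amounts of chromatin, measured as DNA (DNA_chrom), that doubled from 0.31 to 20 µg. Libraries were named after the amount and the titer, from 0.31-T32 and 0.62-T16 over titer 8 to 2.5-T4, 5-T2, 10-T1a and 20-T0.5. Titer is the ratio of antibody to DNA_chrom relative to the ratio of the 10 µg reaction. In the normalized series, the same 7 amounts were used at titer 1, in libraries that ran from 0.31-T1 and 0.62-T1 to 10-T1b and 20-T1. Each series had its own input library, so the series, its input and its preparation cannot be told apart, and titer and DNA_chrom cannot be told apart within the fixed-antibody series. Each condition had 1 library, and 10-T1a and 10-T1b alone shared a condition. Their series follow from the input library that the name of each deposited list gives, which 10-T1a shares with the other fixed-antibody libraries and 10-T1b with the other normalized ones, and counts with the 2 libraries exchanged are given where they change a call. The study describes diluting prepared chromatin of fixed K562 cells to obtain the different amounts, and no source used here names separate cultures. The p-values therefore measure technical spread between reactions and libraries, and not spread between cultures. As a check of the cell line, 14 of 14 erythroid marker genes (among them GATA1, KLF1 and the fetal globins HBG1 and HBG2) had a region with a peak in all 14 lists within 5 kb of the TSS, against 3 of 16 lymphoid genes (CD79A, CD2 and RAG1).

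Enhancers are stretches of DNA where transcription factors bind and from which transcription of a gene at some distance is raised. The nucleosomes beside an active enhancer carry H3K27ac, written by the acetyltransferases p300 and CBP, and the same mark lies on active promoters. In ChIP, an antibody pulls down chromatin fragments that carry the mark, and the amount of antibody per chromatin can be set by titration. Fold enrichment, the unit used here, is the pileup of ChIP fragments at a peak over the background that the peak caller estimated there. For each region and library, the value was that of the strongest peak inside the region. Assigning a region to its nearest TSS is a label and does not show which gene it acts on.

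Several of the strongest members were starts of transcripts and not only distal elements. Of the members on the chromosomes searched, 509 held the whole 300-base window of a start listed by RefSeq (GRCh38.p14) and 4194 did not. The 509 held 686 such windows, 407 of protein-coding genes and 279 of long noncoding RNAs. Members could hold a protein-coding start because the distance was measured from the outer end of each gene, so that an inner start of the same gene did not count. When all tested regions were divided into 5 equal groups by strength, the share with a listed start was 4.09% of the members in the weakest group and 32.6% of those in the strongest. The windows in members had a median of 22 CG dinucleotides and 64.3% G and C, the windows in common regions under 5 kb from a TSS had 27 and 66.7%, and all 34943 windows had 14 and 58.7%. Of the letters of the GATA motif, searched on both strands, TGATAA was in 6.71% of the windows in members, 2.72% of those in promoter regions and 7.55% of all windows, and AGATAA was in 5.10%, 4.30% and 10.4%. The AP-1 letters TGACTCA were in 5.83%, 2.87% and 4.96%, and the GC box GGGGCGGGG was in 20.3%, 24.8% and 15.7%. The 250 bases upstream of 4 of these starts are shown because they lie in members among the strongest of the set, with each CG in capitals. EPC1 and LUC7L2 were named by rank, whereas MIR17HG and NORAD were chosen after their values were seen. The counts of CG are 40 for EPC1, 28 for LUC7L2, 35 for MIR17HG and 16 for NORAD.
EPC1, chr10:32347159-32347408, minus strand: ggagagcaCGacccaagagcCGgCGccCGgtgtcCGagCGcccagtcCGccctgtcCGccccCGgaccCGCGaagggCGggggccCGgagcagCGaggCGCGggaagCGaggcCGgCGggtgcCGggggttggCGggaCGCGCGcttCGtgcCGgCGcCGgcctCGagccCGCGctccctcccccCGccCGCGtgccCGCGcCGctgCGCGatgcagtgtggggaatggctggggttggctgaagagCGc
LUC7L2, chr7:139359644-139359893, plus strand: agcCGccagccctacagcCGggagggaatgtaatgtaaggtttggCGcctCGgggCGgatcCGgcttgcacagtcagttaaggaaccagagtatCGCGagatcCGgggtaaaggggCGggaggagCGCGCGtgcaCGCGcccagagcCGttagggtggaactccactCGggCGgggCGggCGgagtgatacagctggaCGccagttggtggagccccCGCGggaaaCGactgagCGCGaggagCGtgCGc
MIR17HG, chr13:91347437-91347686, plus strand: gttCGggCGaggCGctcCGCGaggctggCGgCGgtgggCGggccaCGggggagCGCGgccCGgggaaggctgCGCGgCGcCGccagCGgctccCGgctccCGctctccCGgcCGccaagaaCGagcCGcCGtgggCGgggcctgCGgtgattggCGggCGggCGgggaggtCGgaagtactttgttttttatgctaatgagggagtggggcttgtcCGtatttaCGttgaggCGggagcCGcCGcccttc
NORAD, chr20:36050961-36051210, minus strand: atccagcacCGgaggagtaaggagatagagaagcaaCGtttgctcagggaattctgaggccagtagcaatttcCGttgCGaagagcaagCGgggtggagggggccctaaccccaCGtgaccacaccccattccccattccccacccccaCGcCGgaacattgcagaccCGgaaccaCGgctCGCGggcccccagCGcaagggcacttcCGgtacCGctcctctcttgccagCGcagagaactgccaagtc

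The member at chr13:91346788-91353093, 48.7 kb upstream of the TSS of GPC5 and in no protein-coding gene, held the start of MIR17HG and the 6 hairpins of the miR-17-92 cluster between positions 91350605 and 91351391. This cluster is a well-known oncogenic miRNA group driven by MYC. On the chromosomes searched, 44 members held 51 hairpins in all, and this member held the most. The mature miRNAs are shown with their seeds, bases 2 to 8, in capitals, because the cluster carries only 4 distinct seeds among these 6 miRNAs: miR-17-5p and miR-20a-5p share AAAGUGC, miR-19a-3p and miR-19b-3p share GUGCAAA, and miR-18a-5p and miR-92a-3p have seeds of their own.
hsa-miR-17-5p: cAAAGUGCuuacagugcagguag
hsa-miR-20a-5p: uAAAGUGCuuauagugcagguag
hsa-miR-18a-5p: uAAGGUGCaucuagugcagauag
hsa-miR-19a-3p: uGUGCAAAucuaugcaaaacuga
hsa-miR-19b-3p: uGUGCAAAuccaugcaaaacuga
hsa-miR-92a-3p: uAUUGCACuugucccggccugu
In order of falling titer, fold enrichment of this member was 9.37, 12.6, 13.6, 13.8, 15.3, 21.0 and 22.3 in the fixed-antibody series. In order of rising DNA_chrom, it was 19.6, 22.1, 19.1, 18.6, 19.6, 18.5 and 20.1 in the normalized series. All 5 libraries of titer over 1 lay below every library of titer 1. The slope was -0.19 ± 0.04 (SE) log2 units per doubling of titer (limma, adjusted p = 0.000795), and it was -0.01 ± 0.04 per doubling of DNA_chrom in the normalized series (limma, adjusted p = 0.905). The member holding NORAD, a long noncoding RNA that binds PUMILIO proteins, had the values 7.35, 11.7, 16.4, 16.6, 24.4, 27.1 and 28.7 with falling titer, and 13.3 to 24.8 with a median of 22.3 in the normalized series. Its slope with titer was -0.32 ± 0.04 (limma, adjusted p = 0.000191).

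The members were 230 to 7999 bp wide with a median of 3081 bp, and their midpoints lay 5001 to 49989 bp from the TSS with a median of 18.0 kb. By distance, 1175 lay at 5 to 10 kb, 1499 at 10 to 20 kb and 2192 at 20 to 50 kb. They were upstream of their nearest TSS in 1920 cases (39.5%) and downstream in 2946. The midpoint was inside the nearest gene in 2213 (45.5%), inside another protein-coding gene in 886 (18.2%) and in no protein-coding gene in 1767 (36.3%). Chromosome 1 held 556 members and the short, gene-rich chromosome 19 held 422. Of all members, 590 (12.1%) lay under 5 kb from another start that RefSeq lists for a protein-coding gene, besides the outer end used by the rule.

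Presence in all 14 lists was the exception among regions at this distance. Of 92457 merged regions under 8000 bp wide and 5 to 50 kb from a TSS, 46447 (50.2%) had a peak in 1 list and 5.26% in all 14. A further 1577 missed the rule by 1 list, and of these 632 (40.1%) lacked a peak only in 0.31-T32, 310 only in 0.62-T16 and 190 only in the library of titer 8. The 5 libraries of titer over 1 accounted for 1227 (77.8%) of these gaps and the 7 normalized libraries for 18.7%, with 118 regions in 0.31-T1. The rule thus left out regions that lacked a peak only at high titer, and their slopes were not computed here. At the edge of the width threshold, the widest member, in the gene DDX56, was 7999 bp wide, with fold enrichment of 6.26 to 15.3, and the first region outside, near BLOC1S4, was 8001 bp wide with 7.43 to 22.4. At the edges of the distance threshold, the nearest member lay 5001 bp from the TSS of TRAPPC3 with 4.57 to 9.49, and the first region outside lay 4999.5 bp from that of C5AR2 with 4.69 to 25.1. The farthest member lay 49989 bp from the TSS of EIF2D with 3.86 to 6.91, and the first region outside lay 50020 bp from that of GYPE with 5.32 to 12.6.

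The members belonged to 3344 genes by nearest TSS, 17.1% of the genes placed, and 2333 of these genes had a single member. Genes with 4 or more members numbered 113 and took 511 members, and 2042 members (41.96%) had another member within 12.5 kb. MORN3 had the most, with 8 members over 64.2 kb of chromosome 12, whose mean percentiles of fold enrichment among all tested regions ran from 11.0 to 94.99. CBFA2T3, which encodes the corepressor ETO2 of erythroid transcription complexes, had 7 members over 73.9 kb, 5 of them inside the gene, with mean percentiles of 10.1 to 64.0. FADS3, a fatty acid desaturase gene, had 7 over 48.2 kb with 5.06 to 59.3. PSAP, which encodes the precursor of the saposins, had 7 over 55.3 kb with 7.12 to 67.7. MED15, which encodes a subunit of Mediator, had 7 members inside the gene over 43.4 kb, all of them weak, with mean percentiles of 0.78 to 14.9. At the other four genes the weakest and the strongest member lay far apart.

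Against regions under 5 kb from a TSS and wide regions found in all lists, the members were weak. In 10-T1a the median fold enrichment was 8.56 in the members (quartiles 6.36 and 11.5), 11.8 in the 9633 regions under 5 kb from a TSS, 9.03 in the 2598 regions over 50 kb away and 14.2 in the 1370 regions of 8000 bp or wider. When all tested regions were ranked by their mean percentile over the 14 lists, 37.6% of the members fell into the weakest of the 5 strength groups and 8.22% into the strongest, compared with 10.7% and 24.3% of the regions under 5 kb from a TSS. Regions over 50 kb away had 31.4% and 7.62%, so the weakness was not particular to the members. In 0.31-T32 the median fold enrichment was 5.38 in the members and 5.39 in regions over 50 kb away. Members in no protein-coding gene had a median mean percentile of 38.7 and members inside their nearest gene 30.3. Each list had its weakest member close to the q-value threshold, with a -log10 q of 2.01 to 2.22. A -log10 q under 3 was seen in 486 members (9.99%) in 0.31-T32, 294 in 0.62-T16, and 153 in 0.31-T1, and the remaining lists had 32 to 223.

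The first question was how the members changed as the ratio of antibody to chromatin rose. At titers 32, 16 and 8 the median fold enrichment of the members was 5.38, 5.78 and 6.04. At titers 4, 2, 1 and 0.5 it was 6.67, 7.35, 8.56 and 8.87. Every step to a lower titer raised the median. In 2891 members (59.4%) all 5 libraries of titer over 1 were below 10-T1a, compared with 67.5% of all tested regions. Fold enrichment in 0.31-T32 was 0.642 of that in 10-T1a at the median member and 0.565 at the median region under 5 kb from a TSS.

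**Figure D1:**
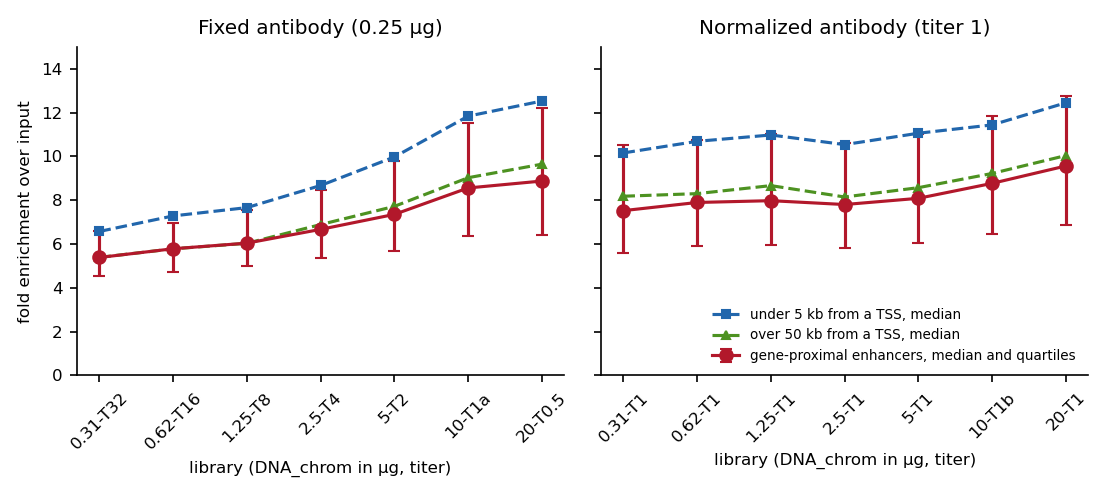
Fold enrichment over input (y axis) in each library (x axis) of the fixed-antibody and normalized series, with medians and quartiles of the 4866 members and medians of regions under 5 kb and over 50 kb from a TSS. The median of the members was 5.38 at titer 32 and 8.87 at titer 0.5, and it lay between 7.52 and 9.56 in the normalized series.

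By a slope of log2 fold enrichment on log2 titer (limma, 7 libraries, Benjamini-Hochberg over all 18472 tested regions, adjusted p under 0.05), 2915 members (59.9%) were lower with rising titer, where 73.9% of all tested regions were. In the other direction 4 members were called, 0.0822% of them, where 0.0325% of all tested regions were. The median slope was -0.12 per doubling of titer in the members, -0.16 in regions under 5 kb from a TSS, -0.14 in regions over 50 kb away, -0.17 in wide regions and -0.15 over all tested regions. Members that were called had a median slope of -0.17 and a median fold enrichment of 10.4 in 10-T1a and 5.71 in 0.31-T32, whereas those that were not called had 6.05 and 5.10. After each list was centred on its median over all tested regions, 5 members were lower, where 0.233% of all tested regions were, and 198 were higher, where 1.94% were. Centring takes out a shift that all regions of a list share. Without 20-T0.5 the members called lower numbered 2175 (44.7%), where 57.0% of all tested regions were called lower. With 10-T1a and 10-T1b exchanged they numbered 2683 (55.1%), where 67.9% of all tested regions were called lower.

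**Figure D2:**
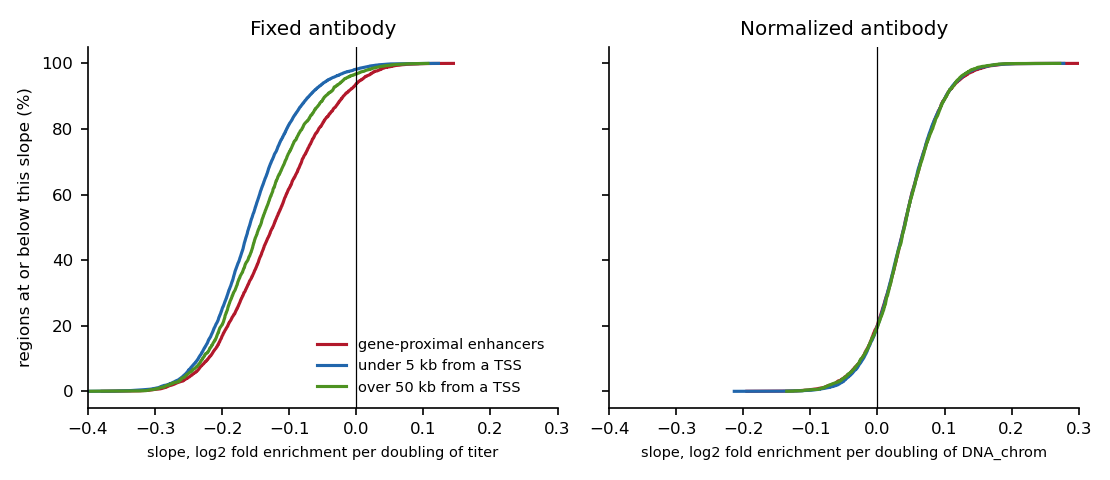
Cumulative share of regions (y axis, percent) by slope of log2 fold enrichment (x axis) per doubling of titer in the fixed-antibody series and per doubling of DNA_chrom in the normalized series, for members and for regions under 5 kb and over 50 kb from a TSS. In the fixed-antibody series the members' median was -0.12 and that of regions under 5 kb from a TSS -0.16, whereas in the normalized series the 3 lines lay on each other.

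The slope varied with the strength of the region. From the weakest to the strongest of the 5 groups, the median slope of the members was -0.07, -0.13, -0.16, -0.18 and -0.19, and the share called lower was 27.6%, 67.1%, 80.5%, 90.7% and 95.3%. In the same groups, regions under 5 kb from a TSS had median slopes of -0.08, -0.13, -0.16, -0.17 and -0.19 with 36.9%, 67.3%, 80.8%, 90.4% and 95.6% called lower. In the weakest group fewer members than regions under 5 kb from a TSS were called, and in the other 4 groups the shares lay within a percentage point. Regions over 50 kb away had 44.4% called lower in the weakest group and 75.4% in the next. The groups were formed from the same fold enrichments. Regions that lacked a peak at a high titer were not tested, and their slopes are not in these groups. These values are therefore a description. By distance, the median slope was -0.12 at 5 to 10 kb, -0.12 at 10 to 20 kb and -0.13 at 20 to 50 kb. Members with a listed start had a median slope of -0.15 and 75.6% called lower, and members without one had -0.12 and 58.0%. Their median mean percentiles were 56.9 and 31.2.

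**Figure D3:**
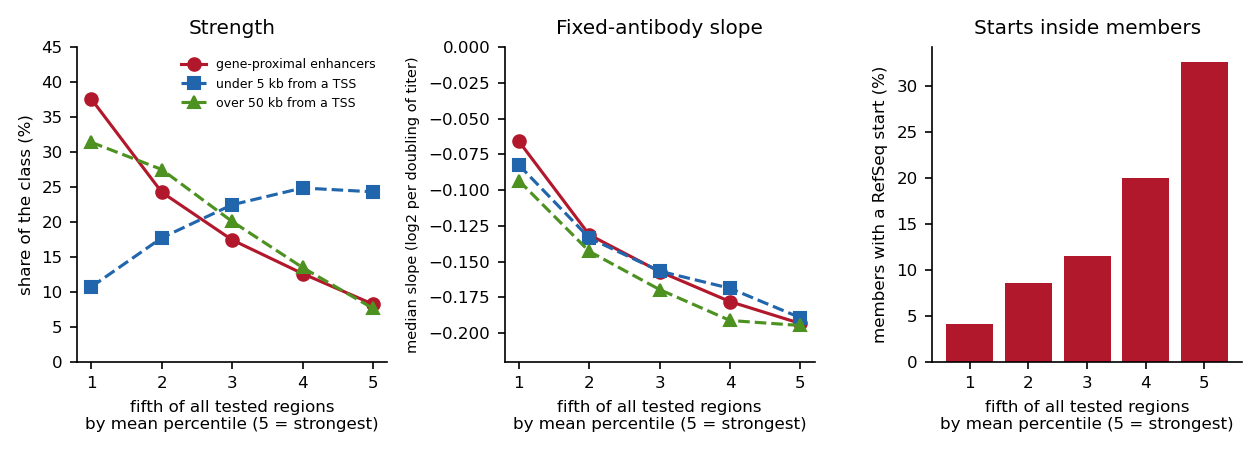
Share of each class (percent) in 5 equal groups of all tested regions by mean percentile of fold enrichment, from 1 (weakest) to 5 (left), median fixed-antibody slope in each group (middle) and percent of members with a RefSeq start window inside (right). Members were most frequent in the weakest group (37.6%), and their slope ran from -0.07 there to -0.19 in the strongest.

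The 10 strongest members by mean percentile lay near EPC1, CLIP1, RCOR1, SEC14L1, FMC1-LUC7L2, RSPH10B2, FOXL2, AGPAT3 (2 members) and MAP3K14. All 10 were called lower with titer, with slopes of -0.13 to -0.26. After centring, only 5 of all 4866 members were called lower, so most of these calls rested on the shift shared by each list. The slope near RSPH10B2 turned to 0.02 after centring (limma, adjusted p = 0.812). EPC1 encodes a subunit of the NuA4 acetyltransferase complex, and its member at chr10:32344472-32349171, which holds the start window shown above, led all members with a mean percentile of 99.4. Its fold enrichment was 13.8, 14.2, 12.6, 19.8, 23.3, 27.4 and 28.7 with falling titer and 21.9 to 26.95 with a median of 24.4 in the normalized series. The 4 highest titers lay below all normalized libraries, and the slope was -0.21 ± 0.04 (limma, adjusted p = 0.000668). RCOR1 encodes CoREST, a partner of the demethylase LSD1, and its member at chr14:102550021-102555925, 39.7 kb upstream, ran from 10.5 to 27.02 in the fixed-antibody series and from 17.7 to 20.6 in the normalized series. The member at chr7:139357715-139363439, at the start of the splicing factor gene LUC7L2 shown above, ran from 9.87 to 31.1 and from 18.3 to 24.0, and its slope was -0.26.

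The steepest falls were seen near C2orf42, KIAA2013, IL16, CLCN3 and CALCR. At chr2:70142945-70146666, 46.2 kb from the TSS of C2orf42, fold enrichment was 3.36, 5.10, 6.04, 6.46, 8.27, 14.47 and 17.5 with falling titer, so that no library of titer over 1 reached those of titer 1 or less. In the normalized series it was 9.41 to 17.2 with a median of 13.97. The slope was -0.38 (limma, adjusted p = 0.000191). The member near IL16, a cytokine gene, at chr15:81163596-81170735 was 5.90, 7.31, 7.39, 16.7, 17.4, 17.4 and 23.1 with falling titer, with a step between titers 8 and 4. The member inside CLCN3, a chloride and proton exchanger gene, was a single peak in every list and ran from 3.83 to 18.4.

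The 4 members called higher with titer were weak, with mean percentiles of 9.14 to 19.0. The member 5.9 kb upstream of METRNL, a gene of a secreted factor, at chr17:83072109-83075244 was 6.20, 8.52, 4.88, 6.21, 3.76, 4.02 and 4.38 with falling titer, and the 4 highest titers lay above the others (slope 0.14, limma, adjusted p = 0.0135). Inside MAP1S, a gene of a microtubule-associated protein, the values ran from 3.26 to 6.19 and the slope was 0.11 (limma, adjusted p = 0.0308). Inside TNFRSF14, the gene of the receptor HVEM, they ran from 3.57 to 6.78 and the slope was 0.10 (limma, adjusted p = 0.0460). Upstream of PEDS1-UBE2V1 they ran from 3.67 to 6.92 and the slope was 0.10 (limma, adjusted p = 0.0481). With 10-T1a and 10-T1b exchanged, none of the 4 was called, and 2 members were called higher without 0.62-T16 and 7 without the library of titer 8.

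In the lists of genes, members were described by nearest TSS. Each count is to be read beside the 59.9% called lower over all members and the 73.9% over all tested regions. The share called lower rose with strength, and the lists differed in strength. Their median mean percentiles ran from 16.4 (iron uptake and storage) to 46.1 (immediate early and AP-1). Of 16 genes of erythroid transcription factors, 9 had members, 23 in all, and 10 of these were lower with titer. Of the 3 strongest, 2 lay at CBFA2T3. Inside the gene, at chr16:88955722-88961489, fold enrichment was 6.44 to 11.9 with a median of 9.18 in the fixed-antibody series and 11.1 to 18.0 with a median of 13.3 in the normalized series (slope -0.15, limma, adjusted p = 0.00498). Only 20-T0.5 of the fixed-antibody series overlapped the normalized range. The member inside KLF13, a Krüppel-like factor gene, ran from 8.23 to 15.2 and from 9.40 to 12.4, with a slope of -0.13 (limma, adjusted p = 0.0106). When the lists were centred, the slopes of these members at KLF13 and inside CBFA2T3 turned to 0.03 and 0.01.

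Heme biosynthesis had 4 members at 3 of 12 genes, and 2 were lower with titer. At UROS, the gene of uroporphyrinogen III synthase, the member inside the gene at chr10:125813431-125818940 was 4.86, 5.85, 5.84, 8.94, 8.72, 11.8 and 7.02 with falling titer. It was 12.5, 12.9, 14.6, 12.7, 13.4, 14.8 and 17.2 in the normalized series, above every fixed-antibody library. The slope with titer was -0.15 (limma, adjusted p = 0.0131), and after centring it was 0.0052 (limma, adjusted p = 0.971). The member near FECH, the gene of ferrochelatase, which lay inside NARS1, was 4.01 to 6.52 in the fixed-antibody series and 7.34 to 11.0 in the normalized series, with a slope near 0 (-0.0034, limma, adjusted p = 0.949). The member near ALAS1 ran from 4.05 to 5.91 and from 4.86 to 8.27, and its slope was -0.04 (limma, adjusted p = 0.441). No globin gene of 10 was nearest to a member.

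Iron uptake and storage had 7 members at 4 of 13 genes, of which 3 were lower. The strongest lay inside SLC11A2, the gene of the iron transporter DMT1, at chr12:51018510-51026360, with 8.84 to 19.8 in the fixed-antibody series, 12.0 to 14.6 in the normalized series and a slope of -0.18 (limma, adjusted p = 0.00200), which was not called after centring and turned on the percentile rank scale (limma, adjusted p = 0.985). The member 26.3 kb upstream of TFRC, the transferrin receptor gene, was 6.32, 8.28, 8.54, 7.90, 13.7, 16.1 and 12.7 with falling titer, with titers of 4 and above below the other 3, and its slope was -0.20 (limma, adjusted p = 0.00139). Genes of the red cell surface and membrane had 18 members at 10 of 23 genes, and 11 were lower. A pair lay upstream of RHAG, which encodes the Rh-associated glycoprotein, at -8.6 and -11.2 kb, with slopes of -0.21 and -0.17. The member near XK, inside LANCL3, ran from 4.74 to 13.2 and from 10.8 to 14.2, with a slope of -0.24 (limma, adjusted p = 0.000372).

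Megakaryocyte and platelet genes had 7 members, of which 4 were lower. They included the member at GP6, the collagen receptor gene, with 5.15 to 12.0 and a slope of -0.20. The member near F2RL3, a thrombin receptor gene, stayed between 7.68 and 9.71 across the fixed-antibody series, with a slope of -0.03 (limma, adjusted p = 0.562). Progenitor and myeloid transcription factor genes had 10 members, of which 4 were lower. A pair of neighbouring members inside RUNX1 had slopes of -0.12 and -0.15, which turned to 0.03 and 0.01 after centring (limma, adjusted p = 0.747 and 0.936). In the normalized series the second of them kept to 6.80 to 7.76 while reaching 12.9 in 5-T2. The member near GFI1 ran from 4.37 to 12.4 with a slope of -0.18. STAT5 targets had 11 members, of which 4 were lower, among them SOCS2 (3.87 to 12.7, slope -0.24) and CCND3 (4.78 to 9.30, slope -0.12), and that of CCND3 turned to 0.04 after centring (limma, adjusted p = 0.715), whereas the member near CISH had a wide spread, from 4.99 in 5-T2 to 18.3 in 10-T1a, and was not called (slope -0.14, limma, adjusted p = 0.0694).

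Immediate early and AP-1 genes had the most members of the lists, 25 at 12 of 18 genes, and 17 were lower. The member 6.3 kb upstream of ATF3 had a median of 14.3 in the fixed-antibody series, 15.1 to 19.5 in the normalized series and a slope of -0.19 (limma, adjusted p = 0.00148). The member near EGR1 at chr5:138491019-138494163 was 8.59, 7.36, 9.85, 12.2, 15.1, 19.3 and 18.1 with falling titer (slope -0.24, limma, adjusted p = 0.000357). In the normalized series it was 10.4 to 20.1, and 10-T1b had 10.6 where 10-T1a had 19.3, although both had the same condition. The member near IER2 ran from 6.44 to 16.7 with a slope of -0.20. Genes of acetylation writers, readers and erasers had 7 members at 5 of 21 genes, and 4 were lower, among them KAT7 (slope -0.19), BRD2 (-0.17) and KAT6B (-0.16). The lymphoid list had 1 member, near CD22, which lay between 4.97 and 7.89 in the fixed-antibody series and was not called (slope -0.03, limma, adjusted p = 0.574). In none of the 11 lists was a member called higher with titer. Such calls were rare, with 4 of the 4866 members (0.0822%) and 0.0325% of all tested regions.

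**Figure D4:**
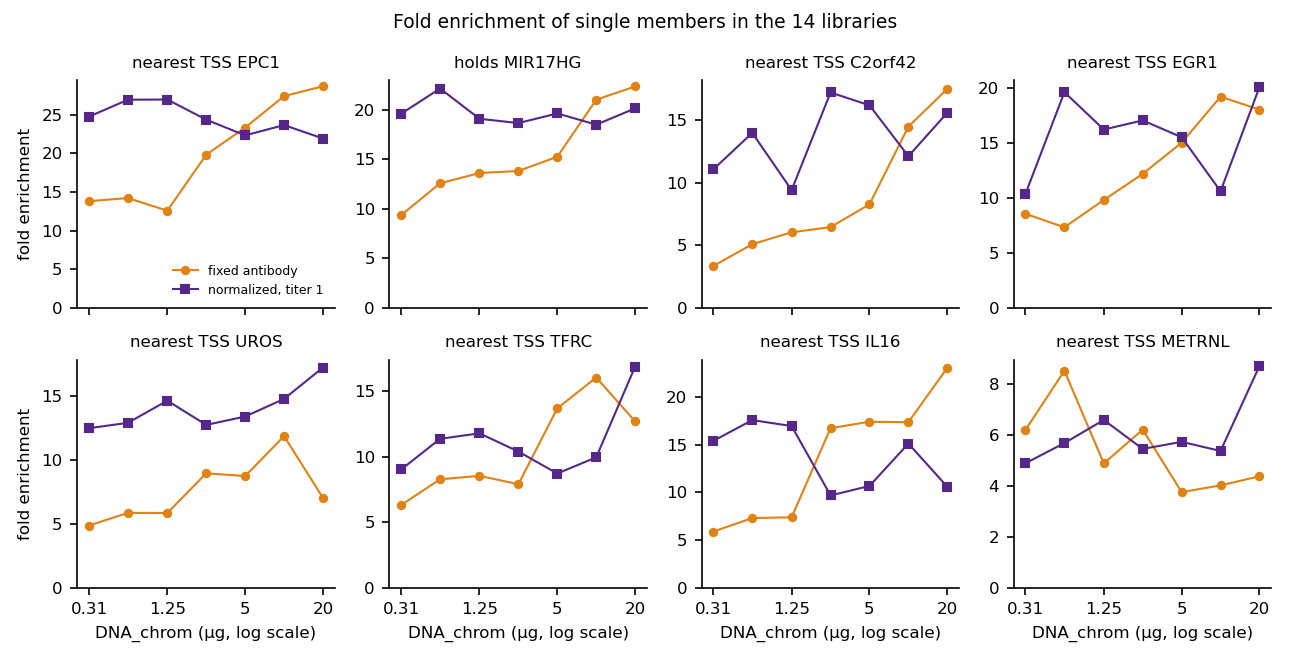
Fold enrichment (y axis, from 0) against DNA_chrom (x axis, µg, log scale) of 8 members in the 7 fixed-antibody and 7 normalized libraries, 1 point per library. Near C2orf42 the fixed-antibody values rose from 3.36 to 17.5 with DNA_chrom, at UROS all normalized values lay above all fixed-antibody values, and near METRNL the fixed-antibody values fell.

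The second question was whether the amount of chromatin mattered at a constant titer. At the 4 lowest amounts, 0.31 to 2.5 µg, the median fold enrichment of the members was 7.52, 7.90, 7.98 and 7.80. At 5, 10 and 20 µg it was 8.09, 8.77 and 9.56. The lowest median of this series lay above those of the 5 fixed-antibody libraries of titer over 1. No member was called in either direction (0 of 4866 higher, where 0% of all tested regions were, and 0 of 4866 lower, where 0% were, limma, smallest adjusted p of the members 0.0677). The exact permutation test over the 5040 pairings of 7 libraries also called 0 members after adjustment. At an unadjusted p under 0.05, limma gave 612 members (12.6%), 585 higher and 27 lower with DNA_chrom, where 12.3% of all tested regions passed. The slope was positive in 3882 members (79.8%), with a median of 0.04 in the members and in all tested regions, so that a small rise with DNA_chrom cannot be told apart from the spread of 7 libraries. At the median member, 0.31-T1 had 0.881 of the fold enrichment of 10-T1b.

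A trend in 1 series and not in the other does not show a difference, so the slopes on DNA_chrom were compared in 1 model over the 14 libraries. The rise of fold enrichment with DNA_chrom was steeper in the fixed-antibody series in 687 members (14.1%, limma, adjusted p under 0.05), where 20.9% of all tested regions were called. It was steeper in the normalized series in 5 members (0.103%), where 0.0812% were called. The 5 were 1 without 0.62-T16, 2 without 0.62-T1 and 3 without 10-T1a or 10-T1b. Of the 687, 682 (99.3%) were among the members called lower with titer, of which they made up 23.4%. Both fits use the same fixed-antibody libraries. The count was 310 (6.37%) without 0.31-T1, where 9.71% of all tested regions were called, and 355 (7.3%) without 20-T0.5, where 10.7% were. Without 10-T1a the count was 391 (8.0%), where 12.0% were, and with 10-T1a and 10-T1b exchanged 438 (9.0%), where 12.3% were. After centring it was 0.

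The largest difference was near IL16 (0.44 ± 0.07 (SE), limma, adjusted p = 0.00303), where the normalized values were 15.4, 17.6, 17.0, 9.69, 10.7, 15.1 and 10.6 with rising DNA_chrom while the fixed-antibody values rose. Near FAM89A at chr1:231044155-231047394 the normalized values were 13.9 in 0.31-T1, 6.49 in 10-T1b and 7.25 in 20-T1, and the fixed-antibody values rose from 5.32 in 0.31-T32 to 15.1 in 10-T1a (difference 0.42, limma, adjusted p = 0.00166). The member 5.1 kb upstream of KLF9 had a difference of 0.40 (limma, adjusted p = 0.00413). The opposite was seen 28.2 kb upstream of SLC19A1, the reduced folate carrier gene, at chr21:45590741-45591675, a single peak in each list, where the normalized values were 3.11, 3.24, 3.61, 7.27, 5.15, 8.03 and 10.7 with rising DNA_chrom and the fixed-antibody values stayed between 4.41 and 6.25 (difference -0.27, limma, adjusted p = 0.0103). The members inside SH3TC1 and near METRNL had differences of -0.23 and -0.22.

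At matched DNA_chrom, the mean over 6 amounts of log2 fold enrichment, normalized minus fixed, was higher in 1708 members (35.1%, limma, adjusted p under 0.05), where 40.6% of all tested regions were called, and lower in 106 (2.18%), where 1.85% were. The 106 were 63 without the 2.5 µg pair and 67 without the 5 µg pair. The median difference was 0.27 log2 units in the members and 0.33 over all tested regions. At UROS it was 1.04 (limma, adjusted p = 4.01e-06), near RSPH10B2 0.95 (limma, adjusted p = 1.3e-05), where the normalized values of 22.3 to 32.1 lay above all fixed-antibody values of 10.8 to 20.3, and at CCND3 0.89 (limma, adjusted p = 4.78e-05). With each list centred on its median, 516 members were higher, where 12.1% of all tested regions were, and 890 were lower, where 14.9% were.

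The 10 µg libraries were left out of this comparison, since they shared their condition, and they give the difference between the series without a difference in titer. Over the members, 10-T1b minus 10-T1a had a median of 0.03 and an SD of 0.49 log2 units. Of the 1708 members called higher, 1306 (76.5%) were also higher in 10-T1b than in 10-T1a, with a median difference of 0.30, where 52.5% of all members were. Of the 106 called lower, 97 (91.5%) were lower in 10-T1b, with a median of -0.66. Across the 4866 members the mean difference at the 6 amounts and the 10 µg difference had a Pearson r of 0.54, a description, since the members share libraries and inputs. Part of the difference between the series at single members was therefore also present at equal titer.

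**Figure D5:**
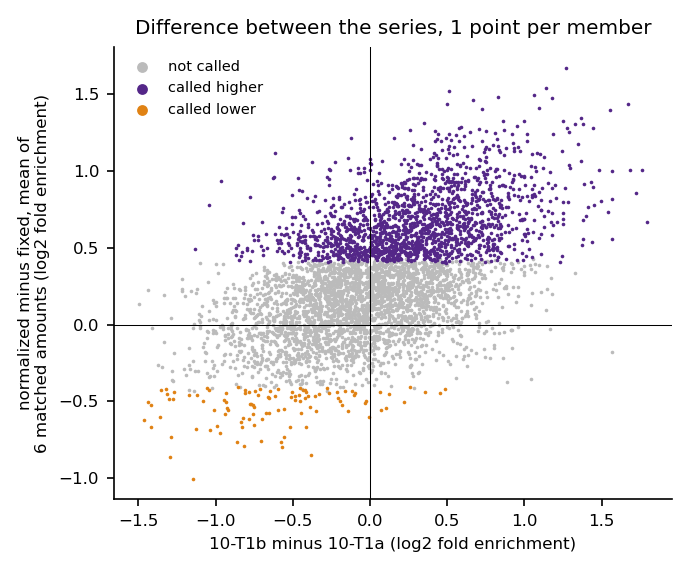
Mean difference between the series at 6 matched amounts (y axis, normalized minus fixed, log2 fold enrichment) against the difference between the 10 µg libraries of equal titer (x axis, log2), 1 point per member, colored by call. Of the 1708 members called higher, 76.5% lay right of 0, and of the 106 called lower, 91.5% lay left of 0.

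Across the libraries of a series, single members were more spread in the fixed-antibody series. The SD over 7 libraries of log2 fold enrichment had a median of 0.36 in the fixed-antibody series and 0.25 in the normalized series, and it was larger in the fixed-antibody series in 3621 members (74.4%), compared with 82.2% of all tested regions. The highest value was on the median 1.995 times the lowest in the fixed-antibody series and 1.63 times in the normalized series. The lowest fixed-antibody value was in 0.31-T32 in 1958 members (40.2%) and the highest in 20-T0.5 in 2161 (44.4%). In the normalized series the lowest was in 0.31-T1 in 1188 (24.4%) and the highest in 20-T1 in 1838 (37.8%).

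The peaks inside the members also changed in shape. At the median member, peaks covered 30.4%, 37.1% and 40.2% of the merged width at titers 32, 16 and 8, and 50.2%, 62.3%, 66.6% and 66.2% at titers 4, 2, 1 and 0.5. Over all tested regions the median share also rose, from 37.1% at titer 32 to 71.3% at titer 0.5. In the normalized series the share was lowest in 0.31-T1, at 56.6%, and 65.5% to 74.0% elsewhere. The mean number of peaks per member was 1.89 to 2.32 in the 14 lists, with 2.10, 2.20, 2.27 and 2.32 at titers 32, 16, 8 and 4, and 2.23, 2.09 and 2.01 at titers 2, 1 and 0.5, so that it was highest at titer 4. A single peak in each list was seen in 248 members (5.10%) and over 1 peak in each list in 625 (12.8%). Against the summit of the strongest peak in 10-T1a, the strongest summit of the same member lay a median of 273 bp away in 0.31-T32, 225 bp at titer 8, 173 bp in 5-T2 and 149 bp in 20-T0.5. The normalized libraries lay 159 to 175 bp from 10-T1b. Ranked by fold enrichment, the 4866 members had a Spearman rho with 10-T1a of 0.60 in 0.31-T32, 0.69 at titer 8, 0.77 in 5-T2 and 0.82 in 20-T0.5, and the normalized libraries had 0.81 to 0.83 with 10-T1b. Between 10-T1a and 10-T1b, which shared a condition but not an input, rho was 0.65 and the median summit distance was 185 bp. The other correlations are across regions of libraries that share an input. All of these values are given as descriptions.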

How the data were processed

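H3K27ac ChIP-seq of K562 cells was read from 14 MACS2 peak lists, 1 per library. Per the labels and the study's methods, 51-bp read pairs were aligned with BWA (0.5.9 in the submitters' processing notes) and peaks were called in Partek Flow, separately in each library without pooling. The names of the deposited lists give the input library used, 1 for all fixed-antibody and another for all normalized libraries. The authors deposited for each peak its position, a fold enrichment ratio, −log10 p and q-values, and a score that is 10 times −log10 q. Fold enrichment was used as deposited. The lists hold no reads and so give no depth; the read totals that the study tabulates were not used here. Positions run past the GRCh37 ends of 7 chromosomes and were read as GRCh38. The genome given was GRCh37, so sequences came only from RefSeq tables of GRCh38.p14. The TSS was the outer end of 19617 of 19970 RefSeq protein-coding genes, with the strand from RefSeq (15812) or GENCODE by symbol (3805).

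The slopes and differences were fitted with limma 3.58.1 (R 4.3.3) on log2 fold enrichment over the 18472 regions called in every list, with Benjamini-Hochberg adjustment over all of them, and tested on simulated data. Region merging used Python 3.11.15. Alternatives were another measure, scale, centring, q-value, filter, test and variance model, an exchange of 10-T1a and 10-T1b, and omission of single libraries or pairs. The members and gene lists were chosen with earlier results of these data known. Members were named by rank of mean percentile, by slope, by number per gene, by gene list and by closeness to a threshold. Summit sequences were not analysed here. Some named members are not reported here.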

Additional observations from a re-analysis of the deposited data

Results flagged for a closer look

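The fall with titer and the trend with DNA_chrom at titer 1 were compared directly. In the fixed-antibody series 687 members (14.1%) had a steeper rise with DNA_chrom (limma, adjusted p under 0.05), where 20.9% of all tested regions did. In the normalized series 5 members (0.103%) had a steeper rise, where 0.0812% of all tested regions did. After centring, the 687 became 0. The differences of the slopes, fixed minus normalized, were 0.44 near IL16, 0.42 near FAM89A and 0.40 near KLF9, and -0.27 near SLC19A1, -0.23 inside SH3TC1 and -0.22 near METRNL, in log2 units per doubling of DNA_chrom.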

How the results depend on the processing

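Members called lower with titer numbered 2915 and were 2015 to 3059 under the other settings and 2175 to 2913 without 1 library, but 0 on the percentile rank scale and 5 after centring, which removes a shift shared by all regions of a list. The share of members called lower lay below that of all tested regions in each setting but the rank scale, where no region was called. Members called higher with titer (4) were 0 on the rank scale, 198 after centring, 2 with the length-weighted mean, 8 with all deposited peaks, 0 with 10-T1a and 10-T1b exchanged and 2 to 7 without 1 library. The trend with DNA_chrom in the normalized series gave 1 member with that exchange and 0 to 0 without 1 library. Members with a steeper fixed-antibody trend (687) were 0 on the rank scale, 0 after centring, 438 with the exchange and 310 to 689 without 1 library, and those with a steeper normalized trend (5) were 0, 1, 2 and 1 to 6. In every setting that called a steeper fixed-antibody trend, the share of members lay below that of all tested regions. Members higher in the normalized series at matched DNA_chrom (1708) were 498 on the rank scale, 516 after centring and 1299 to 1942 without 1 pair, and those lower (106) were 418, 890 and 63 to 112. On the rank scale 10.2% of the members were higher and 8.59% lower, where 10.1% and 9.6% of all tested regions were. After centring 10.6% were higher and 18.3% lower, where 12.1% and 14.9% of all tested regions were. Single libraries moved some of these counts by over 1.5 times: the 4 were 2 without 0.62-T16 and 7 without the library of titer 8, the 687 were 310 without 0.31-T1, 355 without 20-T0.5 and 391 without 10-T1a, the 5 were 1 without 0.62-T16, 2 without 0.62-T1 and 3 without 10-T1a or 10-T1b, and the 106 were 63 without the 2.5 µg pair and 67 without the 5 µg pair. The cause of these changes was not tested.

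The number of members (4866) was 7802 with a peak in at least 12 lists and 4877 to 5498 without 1 list. The median width (3081 bp) was 3294 bp at a -log10 q of at least 3, 2976 bp with all deposited peaks, 2464 bp with 12 lists and 2930.5 to 3078 bp without 1 list. The median over the lists of the members' median fold enrichment (7.85) was 8.67, 7.51, 6.55 and 7.62 to 7.86, and 7.58 when each listed protein-coding start counted as a TSS, a setting chosen after seeing the data.

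On the rank scale, slopes with titer turned at RSPH10B2 (1.57 percentile points), KLF13 (2.99), CBFA2T3 (0.93), SLC11A2 (0.20), both RUNX1 members (2.70 and 0.80) and CCND3 (0.18). After centring they turned at RSPH10B2 (0.0227), KLF13 (0.028), CBFA2T3 (0.0101), UROS (0.0052), both RUNX1 members (0.0305 and 0.0100) and CCND3 (0.0376). Over all alternatives, 802 values of single named members kept their side of the threshold, and uncalled values that changed sign and stayed uncalled count among them. A further 131 lost the call in the same direction, 2 gained one and 14 turned.

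No paired analysis by replicate number was possible, because each condition had 1 library and only 10-T1a and 10-T1b shared a condition. Pairing by amount was possible and is the comparison at matched DNA_chrom. After centring, 18 of 58 results of single named members kept their call or stayed uncalled, 33 lost the call and 7 turned. With 10-T1a and 10-T1b exchanged, 50 did so and 8 lost the call. With 1 library per condition, slopes rest on 7 libraries.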
